A study of Mus musculus with 8 samples.

Results

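The genes described here are 41 genes of the endoplasmic reticulum (ER) stress response and of the integrated stress response led by the transcription factor ATF4. They were chosen by name for their known roles, and 40 of them were among the 11854 named entries of the deposited table. Chac1, a glutathione-degrading enzyme induced through ATF4, had no entry. A filter on low values left 39 of them among 10989 tested genes, and the gene it removed was Slc7a11, the cystine transporter. The study compared hematopoietic stem cells (HSCs), the rare bone marrow cells that renew themselves and all blood lineages, from Nupr1-/- mice with those from wild type mice. Nupr1 encodes a small stress-induced nuclear protein, and the study is named for HSC quiescence and p53 signalling.

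Misfolded cargo in the ER is sensed by PERK, encoded by Eif2ak3, which phosphorylates the translation factor eIF2α, by IRE1α, encoded by Ern1, which splices the Xbp1 message, and by ATF6, which is itself cut to release a transcription factor. Phosphorylated eIF2α slows protein synthesis but favours translation of Atf4, whose product switches on genes for amino acid synthesis, amino acid transport and tRNA charging. XBP1 and ATF6 switch on ER chaperones and the machinery that removes misfolded proteins. HSCs are known for a low rate of protein synthesis and for a strong dependence on these pathways.

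RNA was sequenced from 4 Nupr1-/- and 4 wild type libraries of HSCs sorted from bone marrow. All mice were on a C57BL/6J background, and age, sex, the deleted part of Nupr1 and the sort gate are not given in the sources used here. Nor is it given whether each library came from its own mouse, so p-values measure the spread between these libraries. Values are normalised reads, the deposited reads per gene divided by a size factor per library.

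The libraries held 2296101 to 4769401 reads, and all 17 markers examined for HSC identity had an entry, which alone does not establish identity. The list includes Cd48 and Flt3, which mark progenitors rather than long-term HSCs. In wild type libraries 1 to 4 Cd48 had 0, 0, 113.7 and 105.1 normalised reads, and Flt3 21.6, 1.0, 97.7 and 134.5. In Nupr1-/- libraries 1 to 4 Cd48 had 0, 5.0, 3.5 and 13.0, and Flt3 13.1, 48.6, 14.1 and 19.4. Nupr1 itself had 179.4, 173.3, 200.6 and 118.5 normalised reads in Nupr1-/- libraries 1 to 4, against 285.5, 134.0, 245.3 and 318.2 in wild type libraries 1 to 4, so the groups overlapped. Its log2 difference was -0.50 ± 0.34 (SE; limma adjusted p = 0.433), and where these reads lie relative to the deletion is not known. Xist, transcribed from the inactive X chromosome, had 107.2 to 159.3 normalised reads in Nupr1-/- libraries and 0 to 11.8 in wild type libraries. Of Y chromosome genes, Uty had 0, 2.5, 0 and 6.5 in Nupr1-/- libraries, against 23.7, 3.0, 37.9 and 23.4 in wild type libraries. Kdm5d had 11.5 to 25.9 in Nupr1-/- libraries and 19.9 to 68.2 in wild type libraries, which overlapped. These genes do not settle the sex of each library, and sex and genotype cannot be told apart. Trp53, which encodes p53, had 118.1, 58.6, 102.5 and 118.5 normalised reads in Nupr1-/- libraries, against 450.5, 528.2, 594.2 and 617.5 in wild type libraries, with no overlap (log2 difference -2.49, limma adjusted p = 0.00155). On the first principal component wild type library 2 lay away from the remaining libraries, and members' results are given without it where that changed a call. Across 10898 genes, a library's deviations from the gene means were positively related to transcript GC content in all 4 Nupr1-/- libraries (Spearman rho 0.155 to 0.308) and ran the other way in all 4 wild type libraries (rho -0.313 to -0.141). Values with this trend removed are therefore given for each of the 39 tested genes whose difference the removal moved by more than 1.5 times or turned in sign.

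The promoters of these genes carry 2 kinds of known element, and the sequences below are shown because they separate the gene groups set against each other here. The C/EBP-ATF element bound by ATF4 was searched as TGATGNAA, and the ER stress element bound by ATF6 with NF-Y as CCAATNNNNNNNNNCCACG, both on both strands, in RefSeq windows (GRCm38.p6) from 250 bases before to 50 bases after each gene's start. A window was held for 35 of the 41 genes. The first element was found in 8 of these 35 (22.9%), among them Aars, Asns, Gars and Pck2, against 4.51% of all 27025 genes with a window. The second was found in 7 of 35 (20%), against 0.137% of all genes. Those 7 were the ER chaperone and isomerase genes Calr, Canx, Creld2, Dnajc3, Hsp90b1, Hspa5 and Pdia6. The first element was in 5 of 12 windows of the amino acid genes and 0 of 11 windows of the ER chaperone genes, and the second in 0 of 12 and 7 of 11. A match is a description of letters, not a binding site. The 150 bases before the start are printed 5′ to 3′ on the gene's own strand, with the fixed letters of a match in capitals, on either strand: Pck2 (chr14:55540116-55540265, plus strand) and Asns (chr6:7693210-7693359, minus strand) for the first element, Hspa5 (chr2:34771940-34772089, plus strand), Hsp90b1 (chr10:86705445-86705594, minus strand) and Dnajc3 (chr14:118937782-118937931, plus strand) for the second, and Ppp1r15a (chr7:45526269-45526418, minus strand), in which neither was found.
Pck2: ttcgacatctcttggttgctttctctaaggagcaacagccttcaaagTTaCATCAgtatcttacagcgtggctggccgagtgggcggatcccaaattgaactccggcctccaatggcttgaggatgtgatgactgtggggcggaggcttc
Asns: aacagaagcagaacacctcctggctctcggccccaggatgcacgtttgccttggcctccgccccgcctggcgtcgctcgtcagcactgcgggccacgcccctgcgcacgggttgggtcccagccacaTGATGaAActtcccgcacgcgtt
Ppp1r15a: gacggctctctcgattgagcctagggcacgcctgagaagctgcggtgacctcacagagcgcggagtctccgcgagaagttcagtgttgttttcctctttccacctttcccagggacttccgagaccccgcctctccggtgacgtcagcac
Hspa5: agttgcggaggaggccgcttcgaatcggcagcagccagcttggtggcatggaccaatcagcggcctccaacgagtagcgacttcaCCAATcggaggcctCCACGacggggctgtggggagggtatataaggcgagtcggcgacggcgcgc
Hsp90b1: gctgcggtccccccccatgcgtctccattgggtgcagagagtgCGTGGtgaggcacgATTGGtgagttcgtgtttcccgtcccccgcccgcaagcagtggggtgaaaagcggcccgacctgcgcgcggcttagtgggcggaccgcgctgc
Dnajc3: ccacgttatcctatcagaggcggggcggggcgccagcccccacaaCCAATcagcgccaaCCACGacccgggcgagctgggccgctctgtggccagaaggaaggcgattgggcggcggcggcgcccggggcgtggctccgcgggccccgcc

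Of the 39 genes tested, 2 passed an adjusted p of 0.05, and both were higher in Nupr1-/- HSCs: Ppp1r15a, the stress-induced subunit that directs a phosphatase to eIF2α, and Pck2, the mitochondrial phosphoenolpyruvate carboxykinase. That is 5.13% of the genes, beside 3.8% of all genes tested (1.68% higher and 2.12% lower). edgeR called the same 2 genes (3.1% of all genes called) and DESeq2 4, adding Phgdh and Dnajc3 (6.95% of all genes called). ATF4 itself, CHOP, the sensors and the main ER chaperone BiP did not pass. At an unadjusted p under 0.05 there were 8 of 39 genes (20.5%), beside 19.7% of all genes. For Ppp1r15a, Pck2 and Phgdh all 4 Nupr1-/- values lay above all 4 wild type values, which is 3 of 39 genes without overlap (7.69%), beside 11.7% of all genes (5.78% higher and 5.91% lower). These shares are near the background. Without wild type library 2 there were 5 calls, which added Phgdh, Shmt2 and Dnajc3, in a fit that called 8.02% of all genes. In a bulk sample, more cells of a type and more RNA per cell cannot be told apart.

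Ppp1r15a had 3066.8, 2611.0, 2665.6 and 1888.0 normalised reads in Nupr1-/- libraries, against 972.7, 1693.9, 1269.2 and 883.6 in wild type libraries. Every Nupr1-/- library was above every wild type library, with wild type 2 the highest of its group. The means were 2558 ± 491 in Nupr1-/- HSCs and 1205 ± 365 in wild type HSCs (SD, n = 4 each). The fitted log2 difference was 1.11 ± 0.21 (SE), a 2.16-fold rise (limma adjusted p = 0.0116, exact two-sided permutation p = 0.0286, which is the smallest that 4 against 4 libraries can give). With the GC trend removed the log2 difference was 0.71 and no longer passed (limma adjusted p = 0.180), and it also missed the threshold without Nupr1-/- library 1 or 2 (highest adjusted p = 0.0570). With the GC trend removed and wild type library 2 left out, a setting chosen after the data were seen, it was 0.91 and passed again (adjusted p = 0.0141), in a fit that called 1.95% of all genes. Ppp1r15a lies on chromosome 7 (mm10, 45522916 to 45526268, minus strand), and 12 bases of its exons overlap those of Tulp2.

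Pck2 had 666.4, 754.4, 581.4 and 619.5 normalised reads in Nupr1-/- libraries, against 252.1, 293.6, 310.1 and 301.6 in wild type libraries. The groups lay far apart relative to their spread, at 655 ± 74.6 in Nupr1-/- HSCs and 289 ± 25.7 in wild type HSCs (SD, n = 4 each). The log2 difference was 1.17 ± 0.22 (SE), a 2.26-fold rise (limma adjusted p = 0.0109, exact permutation p = 0.0286). Removing the GC trend left it at 1.06 (adjusted p = 0.0562), or 1.11 with wild type library 2 also left out, where it passed (adjusted p = 0.0141), and leaving out Nupr1-/- library 2 gave an adjusted p of 0.0544. Pck2 lies on chromosome 14 (55540266 to 55551242, plus strand) and shares 53 exon bases with Gm10876. Its promoter holds the C/EBP-ATF element printed above, as do those of Asns, Gars and Aars, which did not pass.

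**Figure D1:**
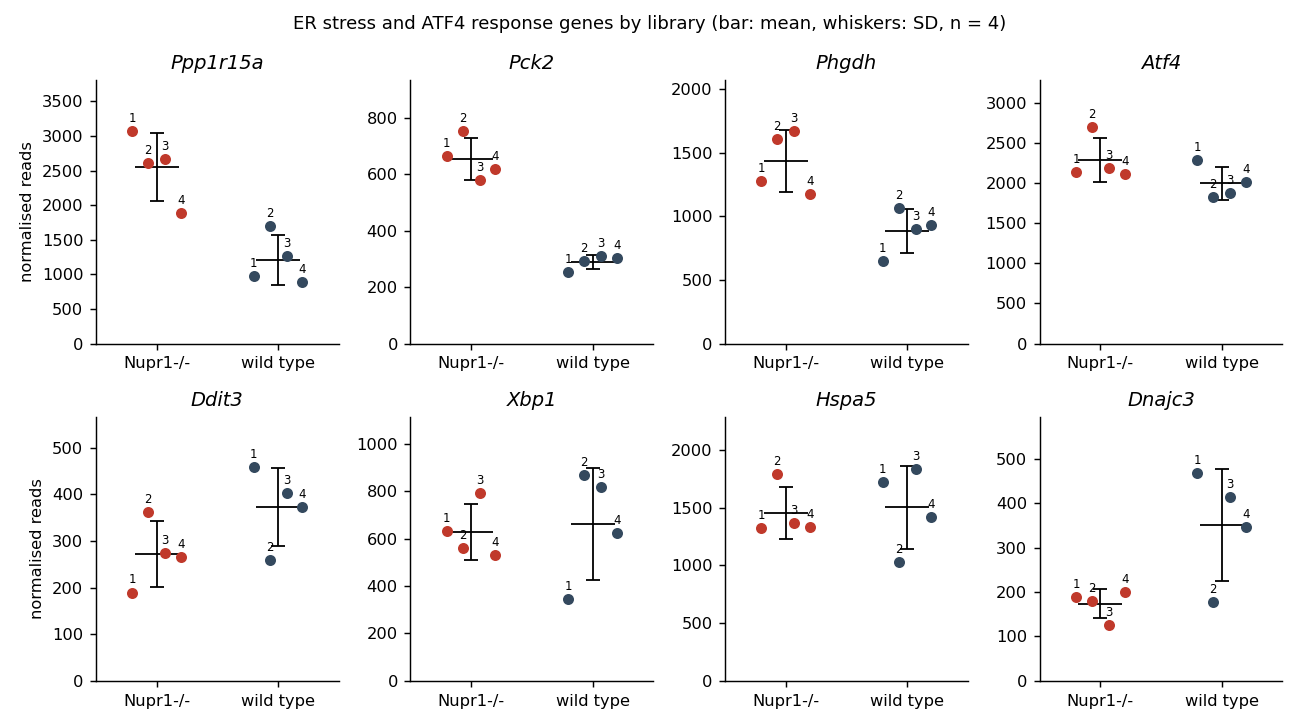
Normalised reads of 8 genes in each of the 4 Nupr1-/- libraries (red) and the 4 wild type libraries (dark blue), with library numbers beside the points, the mean as a bar and the SD as whiskers. Ppp1r15a, Pck2 and Phgdh show no overlap between the groups, whereas Atf4, Ddit3, Xbp1, Hspa5 and Dnajc3 do.

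Among the sensors and signalling genes, none other than Ppp1r15a passed. Eif2s1, which encodes eIF2α, had 402.5, 394.0, 152.0 and 397.2 normalised reads in Nupr1-/- libraries, against 379.5, 239.4, 397.8 and 236.6 in wild type libraries (log2 difference 0.04, limma adjusted p = 0.961). Nupr1-/- library 3 was the low one, and with the GC trend removed the log2 difference was 0.62 (adjusted p = 0.434). The kinase gene Eif2ak3 was thinly covered, with 54.0, 47.4, 85.7 and 45.4 normalised reads in Nupr1-/- libraries and 13.2, 3.9, 129.6 and 38.5 in wild type libraries, and its difference of 1.22 ± 0.86 (SE) was within the library spread (adjusted p = 0.460). Ppp1r15b, the constitutive partner of the same phosphatase, had 197.0 to 335.2 normalised reads in Nupr1-/- libraries and 153.7 to 292.1 in wild type libraries (log2 difference 0.34, adjusted p = 0.577). Unlike Ppp1r15a, its groups overlapped.

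Ern1 had 61.2, 91.0, 184.7 and 177.8 normalised reads in Nupr1-/- libraries, against 73.8, 123.2, 125.6 and 193.5 in wild type libraries. Xbp1 had 631.4, 559.9, 794.3 and 529.6 in Nupr1-/- libraries, against 344.7, 867.1, 816.6 and 622.0 in wild type libraries. Atf6 had 125.4, 98.5, 121.9 and 145.4 in Nupr1-/- libraries, against 70.3, 84.7, 171.5 and 208.6 in wild type libraries. For these 3 genes the Nupr1-/- range lay inside or across the wild type range, and the log2 differences were -0.07 for Ern1, -0.01 for Xbp1 and 0.01 for Atf6, or -0.15, -0.25 and 0.19 with the GC trend removed. Gene totals do not separate spliced from unspliced Xbp1, nor cut from uncut ATF6.

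Atf4 was the most abundant of these genes per transcript length, at 1325 normalised reads per kilobase in Nupr1-/- HSCs and 1160 in wild type HSCs. It had 2136.4, 2697.0, 2192.9 and 2118.5 normalised reads in Nupr1-/- libraries, against 2286.6, 1823.0, 1876.4 and 2015.8 in wild type libraries, with Nupr1-/- library 2 the highest. The log2 difference was 0.19 ± 0.16 (SE; limma adjusted p = 0.539, exact permutation p = 0.143), and -0.12 with the GC trend removed. ATF4 activity is set largely through translation, which these values do not measure.

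Ddit3, which encodes the pro-apoptotic factor CHOP, had 189.6, 362.8, 273.9 and 264.8 normalised reads in Nupr1-/- libraries, against 458.2, 259.2, 402.8 and 372.6 in wild type libraries. Wild type library 2 fell among the Nupr1-/- values, and the other 3 wild type libraries lay above them all. The log2 difference was -0.46 ± 0.28 (SE; limma adjusted p = 0.384), and -0.70 with the GC trend removed. Its exons overlap those of Mars by 68 bases. Trib3, a pseudokinase induced by ATF4 and CHOP, had 39.8 to 128.4 normalised reads in Nupr1-/- libraries and 22.7 to 99.7 in wild type libraries (log2 difference 0.34, adjusted p = 0.788). Trib3 was at -0.17 after GC removal.

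The amino acid genes comprised 7 enzymes, 3 transporter subunits and 5 tRNA synthetases. Of the 14 tested, 1 passed (Pck2), and 13 had a log2 difference above 0. Among all 39 genes 27 did (69.2%), beside 51.3% of all genes tested. Phgdh, the entry enzyme of serine synthesis, had 1273.1, 1609.7, 1667.2 and 1174.1 normalised reads in Nupr1-/- libraries, against 646.2, 1061.3, 903.3 and 933.4 in wild type libraries. Its groups did not overlap, but its log2 difference of 0.70 ± 0.20 (SE) narrowly missed the threshold (limma adjusted p = 0.0565, exact permutation p = 0.0286). DESeq2 gave an adjusted p of 0.0173, and removing the GC trend lowered the log2 difference to 0.22 (adjusted p = 0.703).

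The next enzymes of serine synthesis, Psat1 and Psph, showed no such separation. Psat1 had 364.6, 521.2, 406.4 and 542.6 normalised reads in Nupr1-/- libraries, against 295.2, 622.8, 322.0 and 415.7 in wild type libraries (log2 difference 0.19, limma adjusted p = 0.734). Psph had 131.2, 177.1, 130.8 and 134.3 in Nupr1-/- libraries, against 143.4, 50.3, 108.7 and 148.1 in wild type libraries (log2 difference 0.45, adjusted p = 0.579, and 0.16 with the GC trend removed). Shmt2, which makes mitochondrial glycine from serine, had 453.5, 382.8, 407.3 and 460.2 in Nupr1-/- libraries, against 140.7, 391.2, 294.1 and 188.2 in wild type libraries. Only wild type library 2 reached into the Nupr1-/- range. Its log2 difference was 0.85 ± 0.30 (SE; limma adjusted p = 0.126), and 0.37 with the GC trend removed.

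Mthfd2, a mitochondrial folate enzyme, was thinly covered, with 61.2, 31.2, 1.8 and 98.1 normalised reads in Nupr1-/- libraries and 1.4, 11.8, 44.9 and 6.8 in wild type libraries. Its log2 difference of 1.41 ± 1.21 (SE) did not pass (limma adjusted p = 0.551). Asns, asparagine synthetase and a classic ATF4 target, was the only amino acid gene with a difference below 0, having 74.4, 122.2, 74.2 and 138.0 normalised reads in Nupr1-/- libraries and 144.1, 230.6, 91.7 and 68.8 in wild type libraries (log2 difference -0.29, adjusted p = 0.764). Thus the groups of both genes overlapped broadly.

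Slc3a2, the heavy chain shared by several amino acid exchangers, had 826.8, 955.1, 1024.9 and 706.5 normalised reads in Nupr1-/- libraries, against 612.0, 929.2, 959.2 and 867.7 in wild type libraries (log2 difference 0.07, limma adjusted p = 0.889). Its leucine-transporting light chain Slc7a5 had 89.0, 44.9, 76.9 and 102.8 in Nupr1-/- libraries, against 79.4, 92.6, 63.8 and 44.6 in wild type libraries (log2 difference 0.15, adjusted p = 0.902). Both were below 0 after GC removal, at -0.19 for Slc3a2 and -0.29 for Slc7a5. Slc7a11, which was not tested, had 2.9, 21.2, 0.9 and 6.5 in Nupr1-/- libraries and 4.2, 30.5, 1.0 and 22.7 in wild type libraries. The heavy chain was thus present at far higher values per kilobase than either light chain, at 312 in Nupr1-/- HSCs and 299 in wild type HSCs, against at most 22.3 and 19.9 for the light chains.

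Of the tRNA synthetases, which charge tRNAs with their amino acids, none of 5 passed. Sars, for serine, came nearest, with 350.0, 331.7, 422.3 and 424.1 normalised reads in Nupr1-/- libraries, against 114.2, 288.7, 271.2 and 356.0 in wild type libraries. Its log2 difference was 0.67 ± 0.32 (SE; limma adjusted p = 0.254), and wild type library 4 lay inside the Nupr1-/- range. Wars, for tryptophan, had 449.2, 322.9, 279.2 and 340.7 in Nupr1-/- libraries, against 249.3, 422.7, 207.4 and 236.6 in wild type libraries (log2 difference 0.35, adjusted p = 0.522). Aars, Gars and Nars, for alanine, glycine and asparagine, had log2 differences of 0.17, 0.00 and 0.07. After GC removal Sars was at 0.43, Wars at 0.08, Aars at -0.25, Gars at -0.08 and Nars at 0.16. Gars stood at nearly equal means, 480.1 ± 132 in Nupr1-/- HSCs and 480.3 ± 138 in wild type HSCs (SD, n = 4 each).

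**Figure D2:**
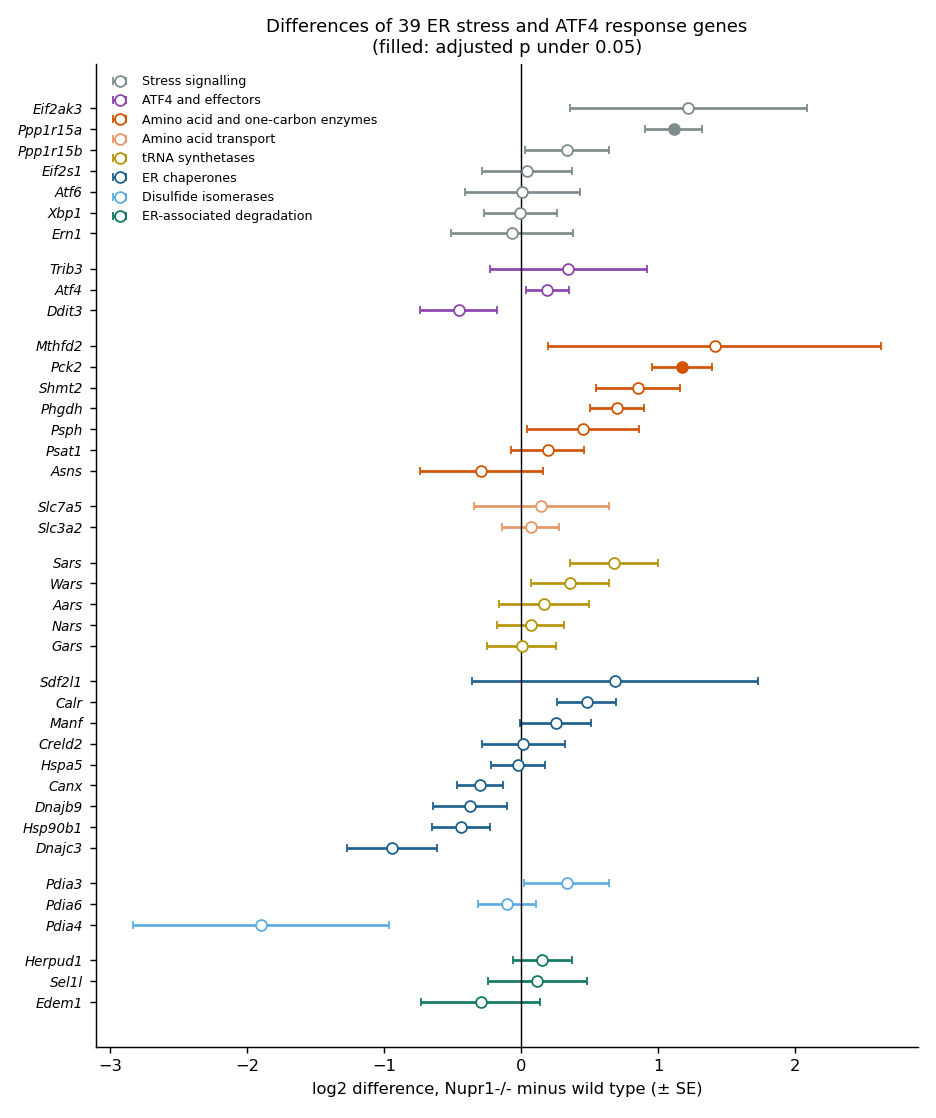
Log2 differences, Nupr1-/- minus wild type, of the 39 tested genes by role, with the SE from limma as whiskers and filled circles for an adjusted p under 0.05. Ppp1r15a and Pck2 are the filled points, 13 of 14 amino acid genes lie right of 0, and the ER chaperones and isomerases lie on both sides.

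Of the 12 ER chaperone and isomerase genes, 0 passed in limma and 0 in edgeR, 3 had an unadjusted limma p under 0.05 (Hsp90b1, Calr and Dnajc3), and DESeq2 called 1 (Dnajc3). Hspa5 encodes BiP, the main ER chaperone and the usual marker of ER stress. It had 1324.1, 1786.8, 1365.0 and 1333.3 normalised reads in Nupr1-/- libraries, against 1722.6, 1029.7, 1833.6 and 1420.2 in wild type libraries. The means were 1452 ± 224 in Nupr1-/- HSCs and 1502 ± 360 in wild type HSCs (SD, n = 4 each), a log2 difference of -0.03 ± 0.20 (SE; limma adjusted p = 0.960), and 0.18 with the GC trend removed. Nupr1-/- library 2 was high and wild type library 2 low.

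Dnajc3, a BiP cochaperone that also restrains PERK, had 188.1, 179.6, 126.3 and 200.9 normalised reads in Nupr1-/- libraries, against 467.9, 177.4, 412.8 and 345.4 in wild type libraries. Only wild type library 2 lay among the Nupr1-/- values. The log2 difference was -0.94 ± 0.33 (SE; limma adjusted p = 0.118, exact permutation p = 0.114). Without wild type library 2 it was -1.24 and passed (adjusted p = 0.0129). With the GC trend removed in all 8 libraries it was -0.53.

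Hsp90b1, the ER member of the HSP90 family, had 609.6, 788.0, 689.1 and 863.9 normalised reads in Nupr1-/- libraries, against 1112.0, 1289.9, 749.8 and 905.5 in wild type libraries (log2 difference -0.44 ± 0.21 SE, limma adjusted p = 0.253). Calr had 660.6, 703.2, 837.6 and 828.7 in Nupr1-/- libraries, against 447.7, 738.1, 477.6 and 543.4 in wild type libraries (log2 difference 0.48 ± 0.22 SE, adjusted p = 0.225). Canx had 2159.7, 1874.1, 2244.1 and 1983.4 in Nupr1-/- libraries, against 2475.3, 3309.9, 2184.5 and 2314.3 in wild type libraries (log2 difference -0.30 ± 0.17 SE, adjusted p = 0.331). Calreticulin and calnexin, encoded by Calr and Canx, are partner lectins that fold the same glycoproteins, and their differences had opposite signs without either passing. With the GC trend removed both were above 0, at 0.40 for Calr and 0.18 for Canx, and Hsp90b1 was at -0.10 (adjusted p = 0.898).

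Dnajb9, a further BiP cochaperone, had 240.6 to 410.0 normalised reads in Nupr1-/- libraries and 289.7 to 562.3 in wild type libraries (log2 difference -0.37, limma adjusted p = 0.469). Manf and Creld2, secreted proteins induced by ER stress, had log2 differences of 0.25 and 0.01. Sdf2l1, a partner of BiP cochaperones, had 11.7 to 83.9 in Nupr1-/- libraries and 1.0 to 68.0 in wild type libraries, a spread between libraries larger than its difference of 0.68 ± 1.04 (SE). None of these 4 genes passed, and with the GC trend removed Dnajb9 was at 0.22, Manf at 0.12, Creld2 at -0.31 and Sdf2l1 at 0.31.

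The disulfide isomerases, which form and reshuffle disulfide bonds, varied most at Pdia4. It had 13.1, 3.7, 32.7 and 15.7 normalised reads in Nupr1-/- libraries, against 29.9, 102.5, 164.5 and 12.8 in wild type libraries. Wild type libraries 1 and 4 lay within the Nupr1-/- range, and the threshold was not met (log2 difference -1.90 ± 0.93 SE, limma adjusted p = 0.268). Pdia3 had 336.9, 198.3, 275.7 and 260.2 in Nupr1-/- libraries, against 151.8, 314.3, 171.5 and 232.0 in wild type libraries (log2 difference 0.33, adjusted p = 0.588). Pdia6 had 488.6 to 774.3 in Nupr1-/- libraries and 589.3 to 798.6 in wild type libraries (log2 difference -0.10).

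ER-associated degradation, which sends misfolded proteins to the proteasome, was represented by 3 genes, and none passed. Herpud1, a ubiquitin-like scaffold of the ligase complex, had 940.6, 685.8, 774.0 and 538.9 normalised reads in Nupr1-/- libraries, against 711.6, 560.7, 649.1 and 676.5 in wild type libraries (log2 difference 0.15, limma adjusted p = 0.731). Its promoter window holds the C/EBP-ATF element and a second form of the ER stress element. Edem1, which extracts misfolded glycoproteins, had 115.2, 86.0, 128.1 and 196.3 in Nupr1-/- libraries, against 82.9, 222.7, 299.1 and 102.8 in wild type libraries (log2 difference -0.30, adjusted p = 0.750). Sel1l, the ligase cofactor, had 132.7 to 312.8 in Nupr1-/- libraries and 129.6 to 272.9 in wild type libraries (log2 difference 0.12). After GC removal Herpud1 was at -0.09, Edem1 at -0.14 and Sel1l at 0.20.

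Set against each other, the amino acid genes had a median log2 difference of 0.27 (14 genes) and the ER chaperone and isomerase genes a median of -0.06 (12 genes), beside 0.03 over all genes tested. Their median GC content also differed, at 53.2% for the amino acid genes and 47.2% for the ER chaperone genes. As the mean deviation from each gene's 8-library mean on the log2 scale, the amino acid genes stood at 0.20, 0.24, -0.01 and 0.42 in Nupr1-/- libraries, against -0.57, 0.07, -0.05 and -0.30 in wild type libraries. The ER chaperone genes stood at -0.22, -0.33, 0.15 and 0.01 in Nupr1-/- libraries, against 0.16, 0.38, -0.10 and -0.05 in wild type libraries. The amino acid minus ER chaperone difference was 0.42, 0.57, -0.16 and 0.41 in Nupr1-/- libraries, against -0.73, -0.30, 0.05 and -0.25 in wild type libraries. Library 3 of each genotype went against the rest of its group, so the groups overlapped. The mean of the amino acid minus ER chaperone difference was 0.62 higher in Nupr1-/- HSCs, and 0.30 higher with the GC trend removed. Each gene weighs equally in these means, thinly covered ones included. In library 3 Mthfd2 had 1.8 normalised reads in Nupr1-/- and 44.9 in wild type HSCs, Sdf2l1 83.9 and 1.0, and Pdia4 32.7 and 164.5. The Pdia4 value of wild type library 3 raised its ER chaperone mean, against the direction in which that library stood out. Over all libraries these genes had log2 differences of 1.41 (Mthfd2), 0.68 (Sdf2l1) and -1.90 (Pdia4). Mthfd2 and Pdia4 thus widened the 0.62, and Sdf2l1 narrowed it. The means without these genes were not computed.

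**Figure D3:**
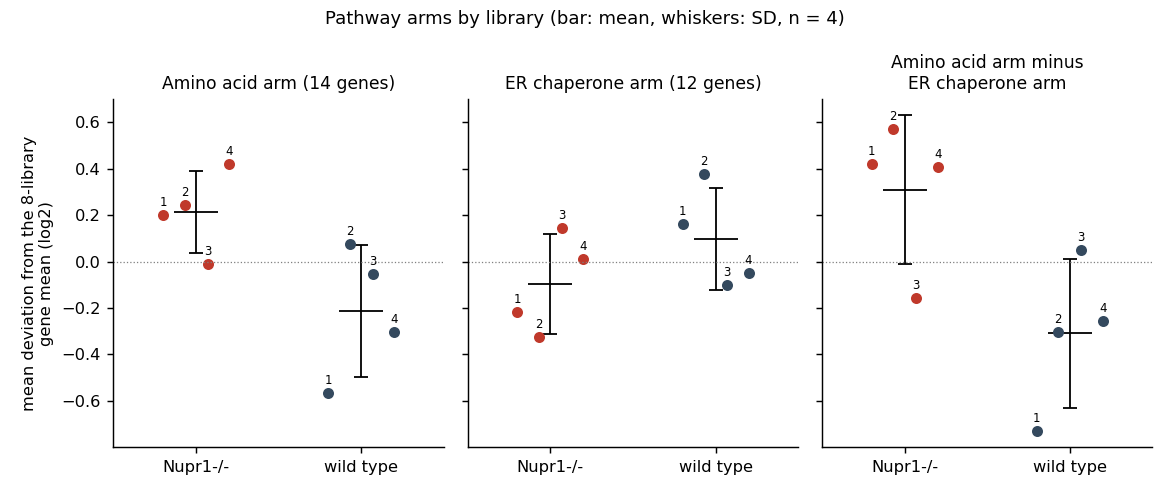
Mean deviation from the 8-library gene mean (log2) of the 14 amino acid genes, the 12 ER chaperone genes and the difference between these means, in 4 Nupr1-/- libraries (red) and 4 wild type libraries (dark blue), with the mean as a bar and the SD as whiskers. In the right panel Nupr1-/- library 3, at -0.16, lies below wild type library 3, at 0.05, and the groups overlap.

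Across the 39 genes the log2 difference followed transcript GC content (Spearman rho 0.559), as it did across 10898 genes (rho 0.461). These are descriptions across genes measured in the same 8 libraries. After the GC and length trend was removed, rho was -0.114 across the 39 genes, the median of the amino acid genes was 0.16 with 9 of 14 above 0, and the median of the ER chaperone genes was 0.15 with 7 of 12 above 0. In that fit limma called 0 of the 39 genes, beside 0.228% of all genes, where edgeR and DESeq2 without GC removal called 2 and 4. At an unadjusted limma p under 0.05 the GC-removed fit held 3 of the 39 genes. The share of all genes at that unadjusted threshold was not computed. Because the GC trend runs with genotype in these libraries, the trend and a genotype effect on GC-rich genes cannot be told apart.

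**Figure D4:**
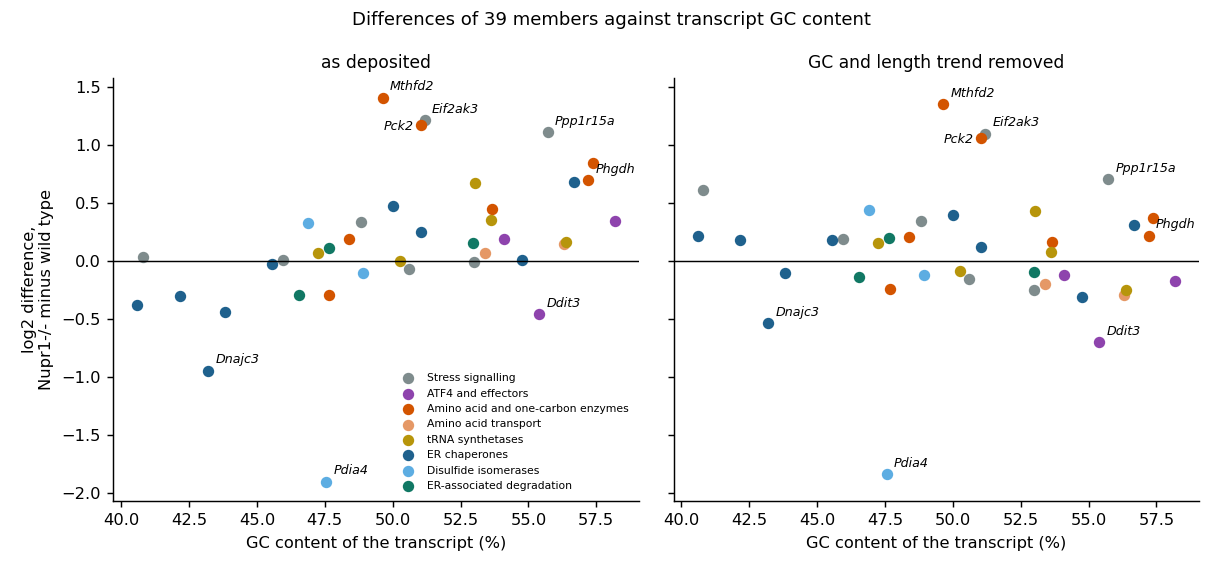
Log2 difference, Nupr1-/- minus wild type, against the GC content of the transcript (percent) for the 39 genes, as deposited on the left and with the GC and length trend removed on the right, coloured by role. Pck2 stays at 1.06 and Ppp1r15a at 0.71 in the right panel, while Phgdh drops to 0.22.

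Markers of other cell types moved with genotype in part. None of the tested neutrophil (1 gene), monocyte and macrophage (5 genes) or T and NK cell (2 genes) markers passed with all 8 libraries. The median log2 differences of these lists were -0.62, -0.02 and 0.02. The neutrophil gene was Prtn3, and other listed neutrophil markers, such as Elane and Mpo, had no entry. Without wild type library 2 Prtn3 was at -0.90 and passed (limma adjusted p = 0.0222), in a fit that called 8.02% of all genes. The summed normalised reads of 10 megakaryocyte markers were 7195.4 to 8108.1 in Nupr1-/- libraries and 5304.3 to 6491.5 in wild type libraries. Of these 10, limma called 5 higher, beside 1.68% of all genes. Plasma cells have an enlarged ER, and the 5 of 13 plasma and B cell markers in the table summed to 241.9 to 2325.4 in Nupr1-/- libraries and 323.8 to 9209.7 in wild type libraries. All 4 of them that were tested had a log2 difference below 0, and none passed with all 8 libraries. Without wild type library 2, Cd79b passed. The defining genes Cd79a, Ms4a1, Prdm1 and Mzb1 had no entry. Igj, which was not tested, had 13.1, 2.5, 1757.3 and 0 normalised reads in Nupr1-/- libraries, against 0, 0, 0 and 1379.4 in wild type libraries. Ighm reached 6740.4 in wild type library 4. The highest sums were thus those of Nupr1-/- library 3 and wild type library 4. The 6 of 11 erythroid markers in the table summed to 4177.1 to 6111.7 in Nupr1-/- libraries and 2275.0 to 4670.7 in wild type libraries. Most of this sum was Car2, at 3851.6 to 5726.7 and 2066.4 to 4444.8, which did not pass (limma adjusted p = 0.104). Of 4 tested 1 passed, Klf1, higher in Nupr1-/- HSCs at 24.9 to 85.7 normalised reads against 0 to 3.0. Its call held in 1 of 8 fits that left out a library. Of 16 HSC markers tested, 9 had a log2 difference below 0 and 7 above, where 51.3% of all genes were above. At an unadjusted limma p under 0.05 there were 6, beside 19.7% of all genes. Of these, Procr, Mecom, Hlf, Hoxa9 and Mllt3 were lower in Nupr1-/- HSCs and Esam higher. The groups did not overlap for Procr and Mllt3, beside 11.7% of all genes. Only Mllt3, a regulator of HSC maintenance, passed the adjusted threshold, beside 3.8% of all genes. Its log2 difference was -0.74 (limma adjusted p = 0.0440), and -0.19 with the GC trend removed. The Mllt3 call held in 1 of 8 fits that left out a library. The part of any of these cell types in the results above was not tested.

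A wider set of 123 tested genes of the same pathways, listed for their roles, gave 9 calls (7.32%), 5 higher and 4 lower in Nupr1-/- HSCs, beside 3.8% of all genes (1.68% higher and 2.12% lower), with a median log2 difference of 0.01. Without wild type library 2 there were 15 calls, beside 8.02% of all genes. Among 23 further regulators of the integrated stress response, both directions occurred within the phosphatase that PPP1R15A guides. Its catalytic subunit gene Ppp1cb had 358.7, 319.2, 322.5 and 495.4 normalised reads in Nupr1-/- libraries, against 1215.7, 1081.0, 849.5 and 736.9 in wild type libraries, with no overlap. Ppp1cb fell by 1.37 on the log2 scale (limma adjusted p = 0.00636), and passed without each library in turn, but not with the GC trend removed (-0.77, adjusted p = 0.169). The annotated gene Gm43312 overlaps its exons on the same strand by 1908 bases.

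Ppp1ca, which encodes another catalytic subunit, had 2779.5, 2402.8, 3293.8 and 2511.1 normalised reads in Nupr1-/- libraries, against 1020.8, 1984.6, 1750.8 and 1842.7 in wild type libraries, and rose by 0.77 (limma adjusted p = 0.0398). Eif2s2, which encodes the beta subunit of eIF2, had 312.1, 380.3, 455.9 and 425.9 in Nupr1-/- libraries, against 958.8, 628.7, 587.3 and 869.2 in wild type libraries, and fell by 0.93 (adjusted p = 0.0341). Each of these calls held in only 1 of the 8 fits that left out a library, and neither with the GC trend removed (0.36 for Ppp1ca and -0.46 for Eif2s2).

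Of 17 further amino acid genes 3 passed, 2 of them described here. Bcat2, the mitochondrial branched-chain aminotransferase, had 183.7, 382.8, 277.4 and 178.7 normalised reads in Nupr1-/- libraries, against 39.0, 63.1, 67.8 and 75.6 in wild type libraries, and rose by 2.01 on the log2 scale (limma adjusted p = 0.0145), with 622 exon bases overlapping an antisense gene. Slc1a5, a glutamine transporter, had 648.9, 708.2, 860.5 and 800.9 in Nupr1-/- libraries, against 329.3, 612.9, 343.0 and 430.8 in wild type libraries, and rose by 0.85 (adjusted p = 0.0492). Both genes lie on chromosome 7, as do Ppp1r15a and Nupr1, with Bcat2 near Ppp1r15a at 45570153 to 45589711. Slc1a5 lies at 16781340 to 16798274, and Nupr1 far from all of them, at 126623249 to 126630861. The remaining called genes of these pathways lie on other chromosomes. Whether position bears on these differences was not tested. The call of Bcat2 held in 7 of 8 fits that left out a library, and that of Slc1a5 in 1. Neither passed after GC removal, at 1.68 for Bcat2 (adjusted p = 0.0824) and 0.41 for Slc1a5.

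None of 15 further tRNA synthetases passed, and 3 had an unadjusted p under 0.05. Leaving out wild type library 2 gave 2 calls, Farsa (adjusted p = 0.00820) and Vars (adjusted p = 0.0223), for phenylalanine and valine, both higher in Nupr1-/- HSCs. Among the 22 further ER chaperones 1 passed, Tmx3, a membrane-bound isomerase. Tmx3 had 24.8, 43.6, 94.5 and 50.9 normalised reads in Nupr1-/- libraries, against 272.9, 86.7, 286.2 and 180.6 in wild type libraries, which overlapped, and fell by 1.94 (limma adjusted p = 0.0395). Among 32 further degradation genes 1 passed, Os9, the lectin that recognises misfolded glycoproteins. Os9 had 312.1, 416.5, 289.8 and 270.4 normalised reads in Nupr1-/- libraries, against 101.0, 125.1, 130.6 and 160.2 in wild type libraries, and rose by 1.31 (adjusted p = 0.0241). Of the fits that left out a library, 2 of 8 called Tmx3 and 3 of 8 called Os9, and neither passed with the GC trend removed (-0.91 for Tmx3 and 0.86 for Os9). Among 14 further signalling genes 1 passed, Yod1, a deubiquitinase acting with the p97 segregase.

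Yod1 had 317.9, 255.6, 538.1 and 550.9 normalised reads in Nupr1-/- libraries, against 185.9, 201.0, 163.5 and 194.2 in wild type libraries, with no overlap. It rose by 1.08 on the log2 scale (limma adjusted p = 0.0494), and held in 1 of 8 fits that left out a library. With the GC trend removed it stood at 1.82 (adjusted p = 0.0105), and it was the only one of the 123 genes called in that fit. Its exons overlap those of Pfkfb2 by 154 bases on the other strand.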

How the data were processed

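RNA-seq was analysed in 4 Nupr1-/- and 4 wild type HSC libraries, grouped by the labels. Per the submitters' processing notes, bcl2fastq, HISAT2, Subread with featureCounts, and DESeq2 were used with mm10, and per the labels' protocols libraries were made with Nextera XT, which keeps no strand. The signal values the authors deposited came out as reads divided by a size factor per library: dividing each library by its smallest step gave whole reads to a tolerance of 0.001. For wild type library 3 the step, 0.997, is near 1, but 0 of its 1512 low values were whole numbers as deposited.

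Genes were named as in the table, in which 17 names had been turned into dates. Genes with at least 10 normalised reads in at least 4 libraries were kept. Differences are on the log2(value + 1) scale. They were tested with limma 3.58.1 (R 4.3.3, trended and robust), with Benjamini-Hochberg adjustment over 10989 genes. For thinly covered genes these differences departed from those of edgeR on reads in both directions. Eif2ak3 was at 1.22 in limma and 0.32 in edgeR, and Sdf2l1 at 0.68 and 0.18. Mthfd2 was at 1.41 in limma and 1.57 in edgeR, and Pdia4 at -1.90 and -2.23. The threshold was 0.05. edgeR 4.0.16 and DESeq2 1.42.0 were run on the recovered reads. Single genes were also tested with exact permutation over 70 assignments of libraries. GC content and length came from the longest coding transcript in GENCODE M21, and the trend was removed per library with natural splines of 5 degrees of freedom each. The fitting code was tested on simulated data.

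Values in every library were given for members called, for Atf4, Ddit3, Hspa5, Xbp1 and the sensors, for the 2 of smallest p in each role group, and for called genes of the wider lists, of which 1 is not reported here. Members and lists were chosen with earlier results of these data known. Other settings were each library left out, pseudocounts of 5 and 10, no filter, voom with library weights and a replicate block. Exons of 14 of the 41 genes overlap another gene, and reads there cannot be assigned with certainty. None of the Nupr1-/- libraries correlated best with the wild type library of its own number. Whether same-numbered libraries were handled together is not given.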

Additional observations from a re-analysis of the deposited data

Results flagged for a closer look

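Within the 4 libraries of a genotype, 5 values stood far from the other 3 by a gap test, out of 80 groups of 4 examined. Chance alone flags about 1 group in 20. Eif2s1 was low in Nupr1-/- library 3, at 152.0 normalised reads, with 394.0 to 402.5 in the other Nupr1-/- libraries. The other 4 were all high values in Nupr1-/- library 2. Atf4 had 2697.0 there, with 2118.5 to 2192.9 in the other Nupr1-/- libraries. Psph had 177.1, with 130.8 to 134.3 in the others. Gars had 677.1, with 392.3 to 425.9 in the others. Hspa5 had 1786.8, with 1324.1 to 1365.0 in the others. None of these 5 genes differed between the genotypes past the threshold.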

How the results depend on the processing

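The 418 genes called became 764 with DESeq2, 651 with voom and library weights, 277 with the replicate block, 25 with the GC trend removed, 28 with block and GC removal together, 214 with GC removal and wild type library 2 left out (chosen after seeing the data), and 49 to 881 with 1 library left out. The 2 calls among the 39 genes became 4 with DESeq2, 5 with voom, 0 with the GC trend removed with or without the block (3 at an unadjusted p under 0.05 in each), 2 with GC removal and wild type library 2 left out (Ppp1r15a and Pck2), and 0 to 5 with 1 library left out: 0 without Nupr1-/- library 2, 1 without Nupr1-/- library 1 and 5 without wild type library 2. The 9 calls in the wider lists became 14 with voom, 5 with the replicate block, 1 with GC removal, 1 with block and GC removal, 2 with GC removal without wild type library 2, and 1 to 15 with 1 library left out. The amino acid median log2 difference was 0.24 to 0.36 and the ER chaperone median -0.20 to 0.01 with 1 library left out, and the amino acid minus ER chaperone difference was 0.48 to 0.78, or 0.28 with GC removal without wild type library 2. The cause of these shifts was not tested. The replicate block rested on shared numbers only: same-numbered libraries correlated at -0.0566 to 0.0148, and none of the Nupr1-/- libraries correlated best with its own number. Eif2ak3, Mthfd2, Sdf2l1, Pdia4 and Slc7a11 had values under 10 normalised reads in at least 1 library.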

Other observations

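Atf3, a stress-induced transcription factor downstream of ATF4, is named here after its values were seen. It had 1096.6, 1066.1, 1509.1 and 397.2 normalised reads in Nupr1-/- libraries, against 438.7, 133.0, 765.7 and 312.2 in wild type libraries. The groups overlapped through Nupr1-/- library 4. Its log2 difference was 1.41 ± 0.52 (SE, limma adjusted p = 0.164), with adjusted p between 0.0521 and 0.305 when 1 library was left out. The limma adjusted p was 0.0353 with the replicate block, and 0.142 with the block and the GC trend removed. That block rests on shared numbers only, and no Nupr1-/- library correlated best with its own number.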
